A study of Mus musculus with 24 samples.

Results

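The mitochondrial genome of the mouse encodes a small set of messenger RNAs for the respiratory chain, and 10 of them were examined here by their symbols: mt-Nd1, mt-Nd2, mt-Nd4, mt-Nd5 and mt-Nd6 (subunits of complex I), mt-Cytb (complex III), mt-Co1, mt-Co2 and mt-Co3 (complex IV) and mt-Atp6 (ATP synthase). They are 10 of 25965 entries of the deposited table and 10 of its 13 mitochondrially encoded entries, all 13 of them protein-coding; the others are mt-Nd3, mt-Nd4l and mt-Atp8. Single oocytes were collected from the oviducts of adult female mice after natural ovulation and freed of cumulus cells and zona, and each was sequenced on its own after SMART-Seq v4 amplification. The transgenic females (Thy1.2-AMHTg/0) overexpress anti-Müllerian hormone (AMH), a hormone of the granulosa cells that restrains follicle growth, and the wild-type females are Thy1.2-AMH0/0. As the name of the construct gives it, a Thy1.2 promoter drives the transgene; the sources used here do not give its founder line or the strain and age in weeks of the females. There were 4 females of each genotype, 10 transgenic and 11 wild-type oocytes (2 or 3 per female), 4 sequencing lanes with 1 female of each genotype, and 1 library of control RNA. The question put by the design is whether AMH overexpression changes an oocyte's messenger RNA, and the female was the replicate (n = 4 per genotype).

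Mitochondrial DNA is copied and transcribed inside the organelle by its own nuclear-encoded machinery. Transcription of its strands gives long precursors that are cut mostly at the tRNAs between the genes, so that the messengers of a strand start from a common transcript; most are made from the heavy-strand promoters and read as the + strand of the reference, whereas mt-Nd6 lies on the opposite strand. Heavy-strand messengers receive short poly(A) tails, while mt-Nd6 is known for little or no polyadenylation. The growing oocyte amasses more mitochondria and mitochondrial DNA than almost any other cell, all of it passed on to the embryo.

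Copies of mitochondrial DNA also lie in the nuclear chromosomes, and they set how well a read can be placed, so the sequences are given first. In GENCODE M21 (GRCm38), whose starts and ends match all 13 mitochondrial entries of the table, 7 pseudogenes lie side by side on chromosome 1, from 24611535 to 24616197 on the minus strand. Gm28661 equals mt-Co2 over 681 bases with 0 differences, Gm10925 equals mt-Atp6 over 678 bases with 0 differences and Gm28437 equals mt-Co3 over 783 bases with 0 differences. In the same row, Gm28439 equals bases 1 to 876 of mt-Nd4 with 0 differences, Gm10222 equals mt-Nd4l over 294 bases with 0 differences, Gm28438 differs from mt-Nd3 in 1 of 345 bases (T3C, mitochondrial base first, counted from the gene's first base), and Gm29216 differs from bases 1063 to 1545 of mt-Co1 at 1 position (A1066T). A stretch of mt-Co2 (chrM:7323-7382, + strand) and the same stretch of its copy (chr1:24615196-24615255, - strand) show why a short read from such a gene has more than 1 perfect match:
mt-Co2: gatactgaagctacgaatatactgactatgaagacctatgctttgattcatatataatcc
Gm28661: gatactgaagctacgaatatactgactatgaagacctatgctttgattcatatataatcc
An older copy of mt-Co1 on chromosome 2, Gm13340, has the whole gene with 37 differences over 1545 bases (97.6% identity). The stretch chrM:5787-5846 (+ strand) and its counterpart chr2:22589129-22589188 (- strand) show how such a copy can be told apart, with the differing bases in capitals:
mt-Co1: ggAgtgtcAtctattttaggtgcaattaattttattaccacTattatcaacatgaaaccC
Gm13340: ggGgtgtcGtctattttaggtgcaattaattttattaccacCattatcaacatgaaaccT
A further ambiguity is internal to the mitochondrial genome. mt-Nd5 on the + strand and mt-Nd6 on the - strand meet end to end and share 14 bases, in capitals below at the 3′ end of mt-Nd5 (chrM:13528-13565) and of mt-Nd6 (chrM:13552-13589); each is written 5′ to 3′ on its own strand:
mt-Nd5: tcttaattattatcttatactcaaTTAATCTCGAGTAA
mt-Nd6: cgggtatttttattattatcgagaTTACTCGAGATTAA
No source states that the strand of a read was kept, so reads of mt-Nd6 and of the heavy-strand transcript opposite it cannot be told apart.

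Over its whole length each gene was compared with all other GENCODE M21 transcripts in stretches of 100 bases. Of these stretches 99.5% of mt-Co2, 99.5% of mt-Atp6 and 99.9% of mt-Co3 occurred in another transcript without a mismatch. mt-Nd4 shared 60.8%, mt-Co1 30.8% and mt-Nd2 3.2%, whereas mt-Nd1, mt-Nd5, mt-Nd6 and mt-Cytb shared 0%. With stretches of 50 bases, mt-Co1 shared 51.1%, mt-Nd4 62.2%, mt-Nd2 8.2% and mt-Nd5 7.6%, and mt-Nd1, mt-Nd6 and mt-Cytb again 0%; the length of the reads was not stated. Among the 3 entries outside the 10, mt-Nd4l shared 98.5%, mt-Nd3 97.6% and mt-Atp8 0%. Nuclear copies that share a stretch of at least 50 bases numbered 13, with a single chromosome left out of this count. Any matches on that chromosome still enter the shares above. Of the 13 copies, 1 is listed in the table, Gm10222 (chromosome 1, 24612404 to 24612700). It had 56 reads over the 10 transgenic and 58 reads over the 11 wild-type oocytes, and 0 reads in the control RNA. Its highest value was 0.875 RPM, RPM being reads per 1000000 library reads. The sources used here do not say how reads with several matches were counted, and the values of mt-Co2, mt-Atp6, mt-Co3, mt-Nd3 and mt-Nd4l are therefore uncertain as measures of these messengers.

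The libraries were deep and rich in egg markers. Totals ran from 20400000 to 33300000 reads in the oocytes and 22000000 in the control RNA, and 3 reads stood for 0.0900 to 0.147 RPM; amplified reads are not independent molecules, so this floor covers counting error only. All 12 egg markers checked (Gdf9, Bmp15 and Zp3 among them) were at 1 RPM or more in every oocyte, with a sum of 25720 to 44770 RPM. Of 26 cumulus and granulosa markers, Cyp19a1, Kitl and Nr5a2 were at 1 RPM or more in every oocyte and were therefore set aside. That choice rests on the same values, so the sum of the rest is low in part because of it. The other 23 summed to 0.0972 to 3.42 RPM in the transgenic against 0.342 to 41.6 RPM in the wild-type oocytes. The 41.6 RPM was in oocyte C of lane 2, and the wild-type sum was at most 7.07 RPM without it. Of the 23, 6 were at 0 in all oocytes, Foxl2 included. Blood markers summed to at most 1.91 RPM. The mouse's own Amh entry had 0 reads over the transgenic oocytes (up to 0.0125 RPM at 3 reads over the group) and 1 read over the wild-type oocytes. Reads of the transgene need not be counted at this entry, and the construct need not be active in the oocyte. These reads therefore do not check the labels.

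The 10 messengers together made up 0.277% to 1.27% of a library, with a median of 0.572% over the 21 oocytes. Their sum ran from 2770 to 12660 RPM with a median of 5719 RPM, against 4926 RPM in the control RNA. The transgenic oocytes had their lowest sum at 2770, their median at 5598 and their highest at 12660 RPM, and the wild-type oocytes at 3920, 5972 and 9408 RPM. The range of the transgenic oocytes thus enclosed that of the wild type at both ends. RPM is a share of a library, so less mitochondrial RNA and more of other RNA cannot be told apart.

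Per length, the members fell into 7 abundant ones and 3 far below. mt-Cytb, the cytochrome b of complex III, was highest with a median of 1800 RPM per kb over the 21 oocytes (721 to 3588). mt-Nd1, a membrane subunit of complex I, followed at 1074 RPM per kb (586.5 to 2503), below mt-Cytb in 21 of 21 oocytes. mt-Nd2, another membrane subunit, had 572 RPM per kb and was below mt-Nd1 in 21 of 21 oocytes. mt-Co1, the catalytic subunit of cytochrome c oxidase, had 524.6 RPM per kb and lay below mt-Nd2 in 17 of 21. The next 3 were complex I genes of nearly the same level: mt-Nd6 at 379.5, mt-Nd4 at 369.8 and mt-Nd5 at 349.8 RPM per kb. mt-Nd6 was above mt-Nd4 in 9 of 21 oocytes and mt-Nd4 above mt-Nd5 in 15 of 21, so these neighbours did not hold a constant order. Per kb of the whole gene, the reads counted for mt-Nd6 thus gave a level close to those of mt-Nd4 and mt-Nd5. Divided by unshared stretches only, as described below, mt-Nd6, mt-Nd4 and mt-Nd5 were at 468.9, 1015 and 369.9 RPM per kb. With the strand of a read unknown, the mt-Nd6 reads are not shown to be light-strand RNA alone. Whether the little polyadenylation of mt-Nd6 alters its capture was not tested.

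The remaining 3 members were at a small fraction of these levels. mt-Atp6, the proton-channel subunit of ATP synthase, had a median of 13.1 RPM per kb (4.93 to 39.3). mt-Co2, which carries the copper centre that takes electrons from cytochrome c, had 7.49 RPM per kb (2.72 to 18.4), and mt-Co3 had 6.60 RPM per kb (3.10 to 16.4). mt-Atp6 was above mt-Co2 in 21 of 21 oocytes and mt-Co2 above mt-Co3 in 15 of 21. Within an oocyte the lowest of the 7 abundant members exceeded the highest of these 3 by 10.0 to 39.1 times, and in the control RNA by 33.5 times. These 3 are the members with over 90% of their 100-base stretches in other transcripts; the other 7 shared 0% to 60.8%.

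In the order of the genome the low genes form a single run. mt-Co2, mt-Atp8, mt-Atp6, mt-Co3, mt-Nd3 and mt-Nd4l (positions 7013 to 10173 of the mitochondrial genome) had medians of 7.49, 7.10, 13.1, 6.60, 10.9 and 0.944 RPM per kb, between mt-Co1 on one side and mt-Nd4 on the other. Their copies on chromosome 1 lie in the same order, from Gm29216 to Gm28439. mt-Atp8, a small ATP synthase subunit, has no annotated copy there and shared 0% of its 100-base stretches. In the mitochondrial genome 230 bases separate mt-Co2 from mt-Atp6, and 233 bases separate their copies on chromosome 1. The sequence of these 233 bases was not compared. mt-Nd4, whose first 876 of 1378 bases are copied, was at 509.6 RPM (median), which is 369.8 RPM per kb of the whole gene. Divided by the count of its 100-base stretches not found in another GENCODE M21 transcript, it was at 1015 RPM per kb. This division is a level only if reads with several matches were not counted, which is not known, and sequence outside annotated transcripts was not searched. The same division gave 1971 RPM per kb for mt-Cytb, 1198 for mt-Nd1, 810.5 for mt-Co1, 653.2 for mt-Nd2, 468.9 for mt-Nd6 and 369.9 for mt-Nd5. The part of shared sequence in the low values was not tested.

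**Figure D1:**
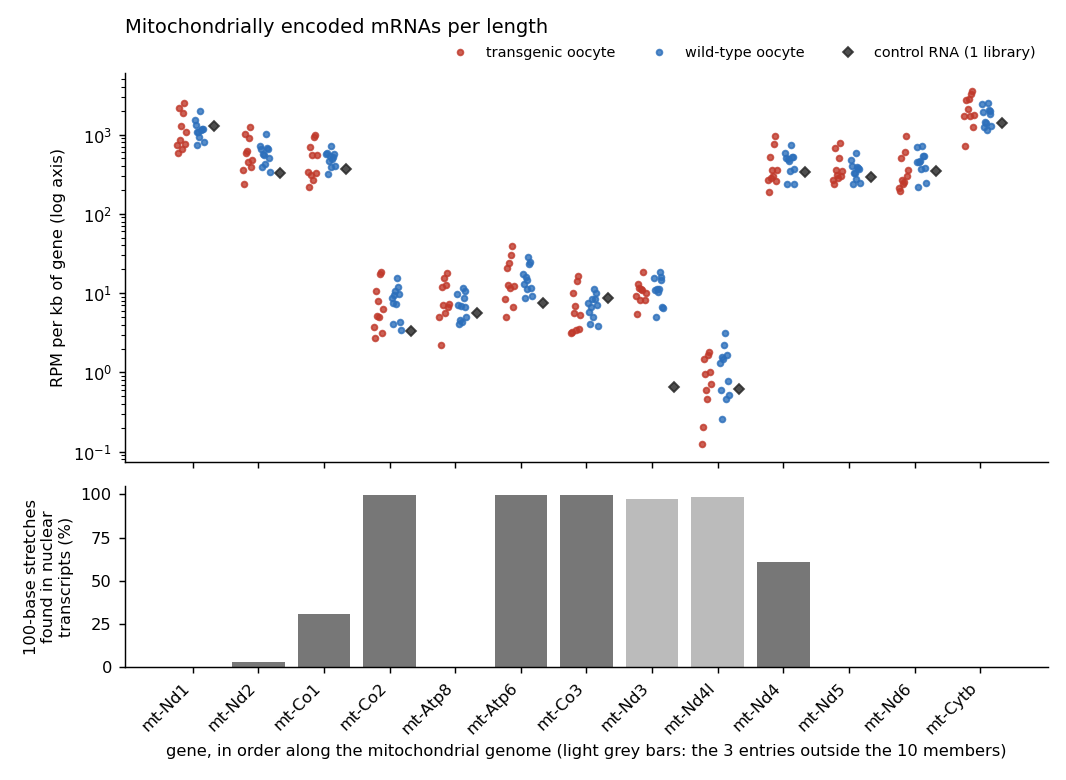
Upper panel: RPM per kb of each mitochondrially encoded entry on a log axis, in genome order, for 10 transgenic and 11 wild-type oocytes and 1 control RNA library; lower panel: percent of a gene's 100-base stretches that occur exactly in another GENCODE M21 transcript. Of the 10 members, mt-Co2, mt-Atp6 and mt-Co3 stand at medians of 6.60 to 13.1 RPM per kb and share 99.5% to 99.9% of their stretches, while the other 7 have medians of 349.8 to 1800 RPM per kb.

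Against the control RNA the oocytes had a somewhat different mix, as a description of 1 library. Among the low members the oocyte median was 2.26 times the control value for mt-Co2 (5.12 against 2.27 RPM, from 50 reads), 1.74 times for mt-Atp6 (8.90 against 5.13 RPM) and 0.75 times for mt-Co3 (5.17 against 6.90 RPM). Among the abundant ones it was 1.74 times for mt-Nd2, 1.41 times for mt-Co1 and 1.30 times for mt-Cytb (593.7, 810.5 and 2059 RPM against 340.7, 573.1 and 1591 RPM). It was 0.837 times the control for mt-Nd1. mt-Nd4, mt-Nd5 and mt-Nd6 were at 1.11, 1.19 and 1.09 times the control. mt-Nd3, a complex I subunit outside the 10, stood furthest apart, at 3.79 RPM (1.75 to 6.51) in the oocytes against 0.227 RPM, from 5 reads, in the control RNA. mt-Nd4l was at 0.281 RPM (0.0368 to 0.946), from as few as 1 read, and was too low to be tested.

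Between the genotypes no member passed the test. With limma on female means of log2(RPM + 1), 0 of the 10 passed an adjusted p of 0.05, beside 0% of 10987 genes tested. The smallest unadjusted p of a member was 0.179; 748 of the tested genes (6.81%) were under an unadjusted p of 0.05, 443 of them lower (4.03%) and 305 higher (2.78%) in the transgenic females. The smallest adjusted p of all was 0.724, and voom on the reads of each female also called 0 genes. Differences were below 0 in 8 of 10 members, beside 52.2% of all tested genes, with a median of -0.17 against -0.014; by means of RPM without the logarithm, 6 of 10 were lower. The females of the genotypes overlapped in 10 of 10 members; over all tested genes 4.31% did not overlap. The 95% intervals of the members' log2 differences reached from -0.99 to 0.69.

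Of the complex I messengers, mt-Nd6, a small membrane subunit, had the largest difference. The transgenic females of lanes 1 to 4 averaged 105.8, 173.9, 317.3 and 169.7 RPM and the wild-type females 237.8, 221.7, 308.1 and 162.5 RPM. The transgenic females of lanes 1 and 2 were below their lane mates, and those of lanes 3 and 4 slightly above. The means were 191.7 ± 89.4 and 232.5 ± 59.9 RPM (SD, n = 4), a log2 difference of -0.37 ± 0.26 (SE; limma, adjusted p 0.786). mt-Nd4, a subunit of the membrane arm, had 552 ± 271 RPM in the transgenic against 612 ± 166 RPM in the wild-type group, a log2 difference of -0.25 ± 0.27 (adjusted p 0.851). mt-Nd1 had 1122 ± 443.9 against 1110 ± 195 RPM (-0.11 ± 0.22, adjusted p 0.916), and mt-Nd2 610.0 ± 275.5 against 599 ± 157 RPM (-0.08 ± 0.28, adjusted p 0.948). For both the transgenic mean was higher in RPM and lower on the log2 scale, so the sign depends on the scale. mt-Nd5, the distal membrane subunit, was on the other side of 0, with 705 ± 220.4 against 655 ± 124 RPM (0.05 ± 0.20 on the log2 scale, adjusted p 0.961).

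mt-Cytb had the highest difference of the 10. Its transgenic females averaged 1385, 2903, 3273 and 1707 RPM in lanes 1 to 4 and its wild-type females 2111, 1526, 2468 and 1760 RPM. The transgenic values were above the wild type in lanes 2 and 3, below it in lane 1 and close to it in lane 4. The means were 2317 ± 913 and 1966 ± 412 RPM (SD, n = 4), a log2 difference of 0.13 ± 0.26 (SE; limma, adjusted p 0.912).

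Among the complex IV messengers, mt-Co1 had 761 ± 291 RPM in the transgenic against 780.0 ± 83.3 RPM in the wild-type group (log2 difference -0.18 ± 0.21, adjusted p 0.861). Its transgenic females spread from 428 to 1129 RPM and enclosed the wild-type females at 713 to 901.5 RPM. mt-Co2 had 5.03 ± 3.13 against 5.51 ± 2.49 RPM (-0.21 ± 0.36, adjusted p 0.90) and mt-Co3 5.19 ± 2.88 against 5.44 ± 1.59 RPM (-0.19 ± 0.31, adjusted p 0.895). mt-Atp6 had 10.6 ± 6.34 against 10.7 ± 4.55 RPM (-0.16 ± 0.37, adjusted p 0.925). These 3 low members rest on 58 reads or more in every oocyte. Outside the 10, mt-Nd3 had a log2 difference of -0.06 ± 0.27 (adjusted p 0.962) and mt-Atp8 of 0.11 ± 0.27 (adjusted p 0.935).

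**Figure D2:**
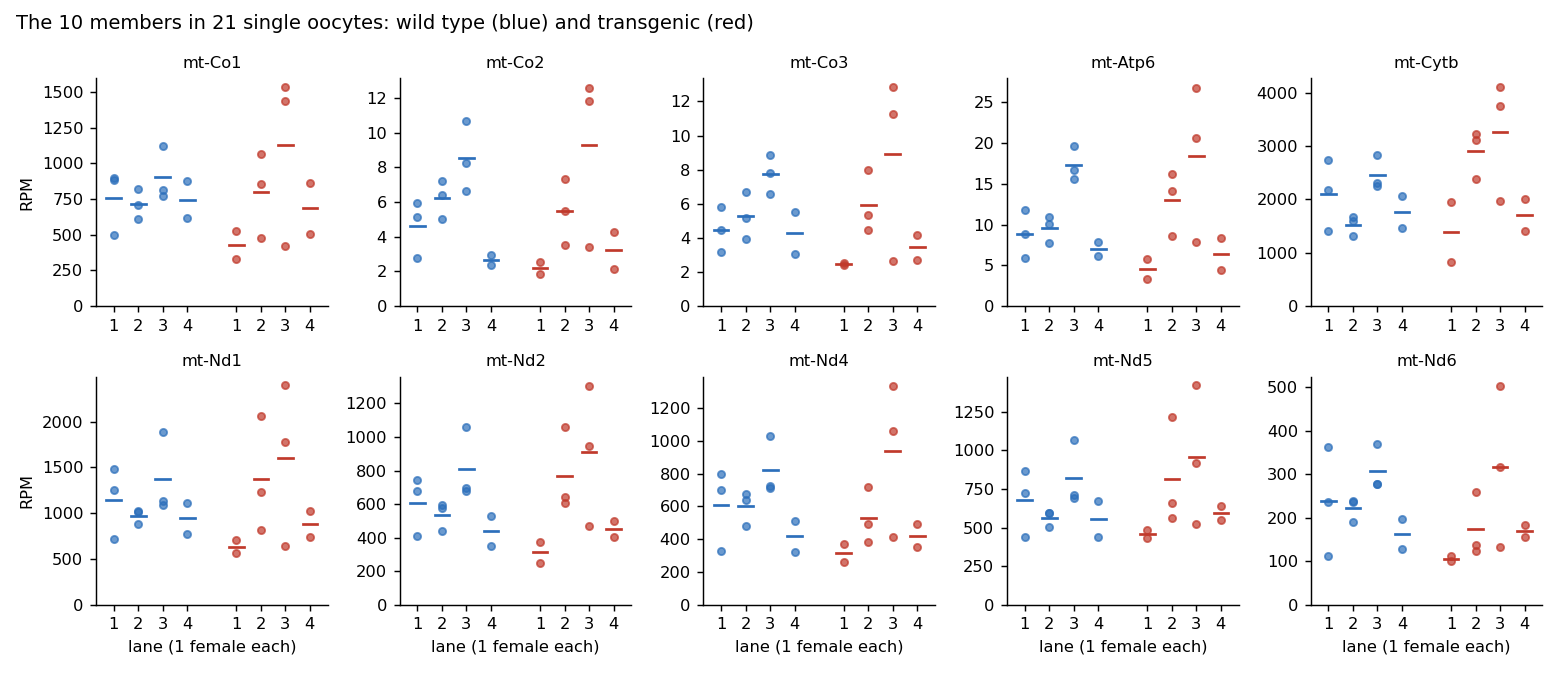
RPM of each member in every oocyte, by sequencing lane; points are oocytes, bars are means of a female, blue is wild type and red transgenic. The transgenic females of lanes 1 and 3 hold the lowest and the highest mean in all 10 panels.

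The direction of the members differed between the lanes. A lane holds 1 female of each genotype, so a lane and its females cannot be told apart. In lane 1 the transgenic female was below the wild-type female in 10 of 10 members, by -1.01 to -0.499 on the log2 scale with a median of -0.808, while 51% of all tested genes were lower there. In lane 2, 3 of 10 members were lower, with a range of -0.422 to 0.922 and a median of 0.254. In lane 3, 4 of 10 were lower (-0.143 to 0.344, median 0.0579), and in lane 4, 5 of 10 (-0.224 to 0.164, median -0.00332). The shares of all tested genes that were lower in these lanes were 58.9%, 51.6% and 44.9%. Without the transgenic female of lane 1, 2 of 10 members were lower in the transgenic group, mt-Nd4 and mt-Nd6, and 5 of 10 were lower once the wild-type female of lane 3 was set aside.

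**Figure D3:**
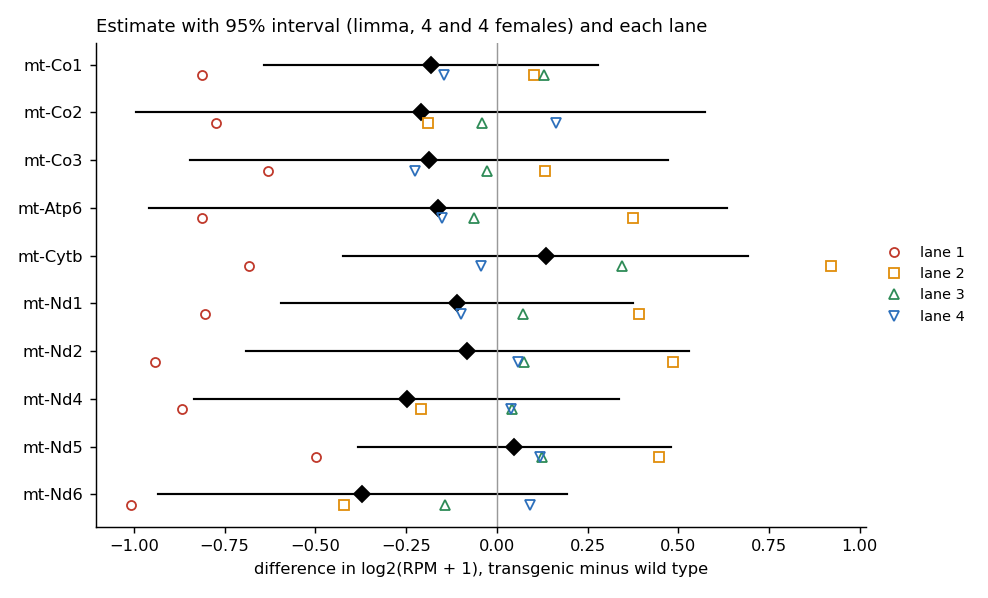
Log2 difference of each member, transgenic minus wild type: diamonds with lines are the limma estimates from 4 and 4 females with 95% intervals, open symbols the 4 lanes. Lane 1 lies at -1.01 to -0.499 for all 10 members, and all 10 intervals hold 0.

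The transgenic females stood further apart from each other than the wild-type females did. The summed members averaged 3650, 7385, 9157 and 4925 RPM in the transgenic females of lanes 1 to 4 and 6169, 5158, 7538 and 5041 RPM in the wild-type females. The transgenic females thus hold the highest and the 2 lowest of the 8 values, and the SD was 2467 RPM around a mean of 6279 in the transgenic group and 1158 RPM around 5977 in the wild type; the difference of these spreads was not tested. The transgenic female of lane 1 was the lowest of 8 females in 10 of 10 members, and that of lane 3 the highest in 10 of 10. The difference of the summed level itself was -0.025 on the log2 scale, with the transgenic sum higher in 2 of 4 lanes; leaving out the transgenic female of lane 1 gave 0.20, and leaving out that of lane 3 gave -0.21.

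Sister oocytes of 1 female differed as well. The highest sister exceeded the lowest in the summed members by 1.25 times (wild type, lane 2) to 2.77 times (transgenic, lane 3). In the latter female, oocyte A had 4573, oocyte B 10240 and oocyte C 12660 RPM, and oocyte C was the highest of all 21 in 10 of 10 members. Oocyte C of the transgenic female of lane 1 was the lowest of all 21 in 9 of 10. In each of the 8 females the sister with the highest sum was the highest of its sisters in 6 to 10 of the 10 members. On the log2 scale the SD within a female was 0.431 (mt-Cytb) to 0.584 (mt-Nd6) and the SD between females 0.344 (mt-Nd5) to 0.662 (mt-Atp6). Medians over all tested genes were 0.41 within and 0.321 between females, and over the 1921 tested genes at 100 RPM or more they were 0.244 and 0.229, so that the abundant members varied more than the typical gene of high level.

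Over the 21 oocytes the members moved together, as a description in which the points share females, lanes and the library total that scales every gene. The 45 pairs had Pearson's r of log2(RPM + 1) from 0.652 to 0.956 with a median of 0.875, and Spearman's rho from 0.639 with a median of 0.868. mt-Cytb with mt-Nd6 was the lowest pair by both measures. The highest was mt-Nd4 with mt-Nd6 by Pearson's r (0.956, rho 0.939) and mt-Co1 with mt-Nd1 by Spearman's rho (0.949). By rank, the nuclear transcripts most like the mean of the 9 heavy-strand members were Bcap31 (rho 0.951, Pearson's r 0.920), an endoplasmic reticulum protein, Srrm1 (0.899), a splicing co-activator, Hsp90aa1 (0.891), a chaperone, Cwf19l2 (0.881) and Letm2 (0.879). Those most like mt-Nd6 were Meaf6 (0.918), of histone acetyltransferase complexes, Polr3a (0.897), the largest subunit of RNA polymerase III, Cwf19l2 (0.890), Tbrg1 (0.888) and Rgs2 (0.884), a regulator of G-protein signalling.

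Library properties moved with the summed members too. The log2 sum had r = -0.72 (rho -0.67) with the share of reads in listed genes, which ran from 91.1% to 94.8%, and r = -0.599 with the library total. It had r = -0.592 with the summed egg markers, -0.216 with the summed cumulus markers and -0.181 with the number of genes detected. The share of reads in listed genes averaged 93.4 ± 0.846% for transgenic against 92.5 ± 0.609% for wild-type females (SD, n = 4), higher in the transgenic female in 4 of 4 lanes. The part of these properties in the members' values was not tested.

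**Figure D4:**
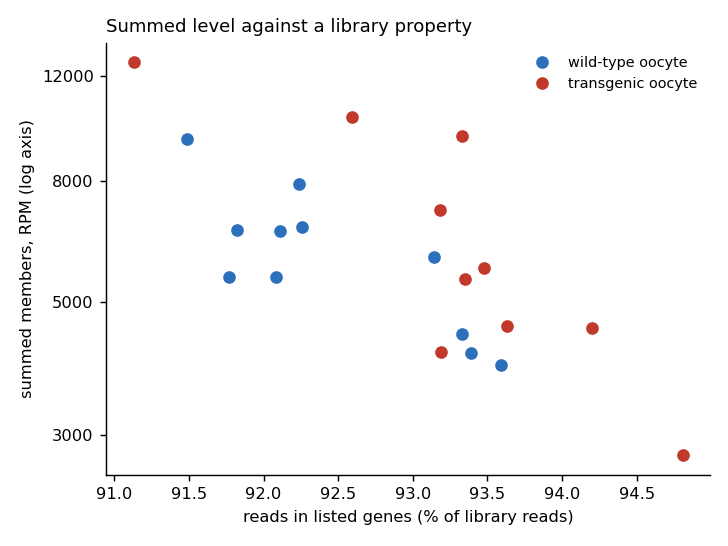
Summed RPM of the 10 members (log axis) against the percent of a library's reads in listed genes, 1 point per oocyte, blue wild type and red transgenic. The oocyte with the lowest sum, 2770 RPM, has the highest share, 94.8%, and that with the highest sum, 12660 RPM, has the lowest, 91.1%.

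A share within the mitochondrial messengers does not depend on the library total, and the reads counted for mt-Nd6 were set against those of the heavy-strand members in this way; with the strand of a read unknown, this is a ratio of loci and not of strands. For every 100 reads of the 9 heavy-strand members, mt-Nd6 had 3.14, 2.38, 3.44 and 3.62 reads in the transgenic females of lanes 1 to 4 and 3.82, 4.49, 4.28 and 3.31 in the wild-type females. The transgenic value was lower in lanes 1, 2 and 3 and higher in lane 4, and the groups overlapped. The means were 3.14 ± 0.545 and 3.98 ± 0.524 per 100 (SD, n = 4), a difference of -0.36 in the log2 ratio, which stayed between -0.44 and -0.23 with any 1 female left out. Over oocytes the transgenic values had their lowest at 1.76, their median at 3.08 and their highest at 4.14, and the wild-type values at 2.96, 4.37 and 4.82; the control RNA had 3.79. This ratio was given as a description and was not tested.

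The mt-Nd6 reads were also set against its neighbour mt-Nd5 on the other strand. There were 23.0, 21.4, 31.8 and 28.6 mt-Nd6 reads per 100 mt-Nd5 reads in the transgenic females of lanes 1 to 4, and 33.5, 39.2, 37.9 and 29.1 in the wild-type females. The transgenic value was lower in 4 of 4 lanes, with a difference of only -0.552 reads per 100 in lane 4, and the groups overlapped (26.2 ± 4.80 against 34.9 ± 4.59, SD, n = 4). Sister oocytes were close in some females, with 22.96 and 23.04 in the transgenic female of lane 1 and 21.0, 21.4 and 21.9 in that of lane 2. They were far apart in the wild-type female of lane 1, at 25.8, 32.7 and 42.0.

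**Figure D5:**
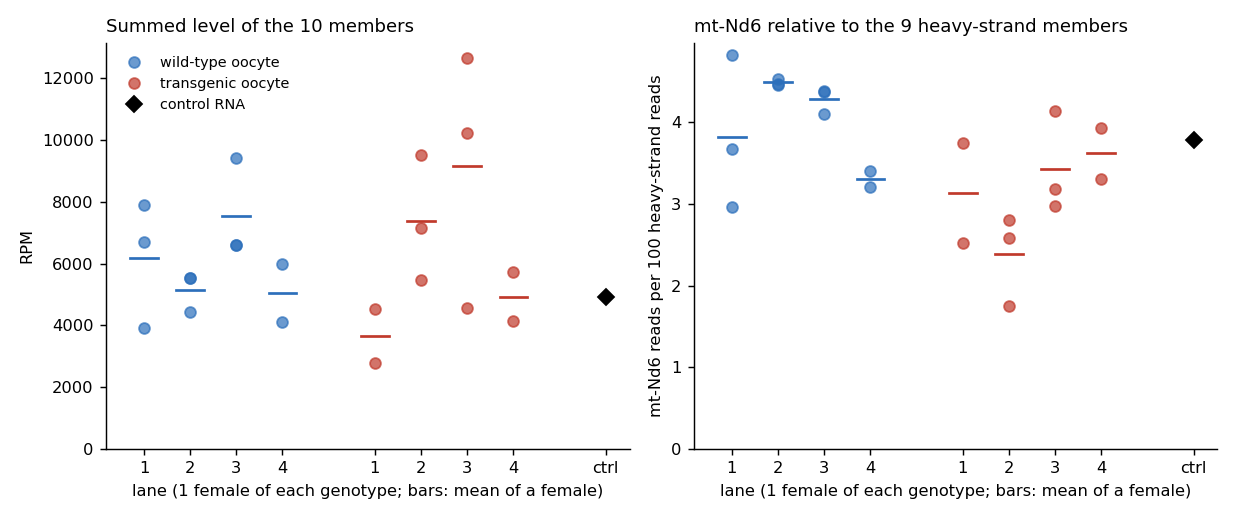
Left: summed RPM of the 10 members; right: mt-Nd6 reads per 100 reads of the 9 heavy-strand members; points are oocytes, bars means of a female, and the diamond is the control RNA. The wild-type oocytes lie at 2.96 to 4.82 per 100 and the transgenic at 1.76 to 4.14, with the lowest, 1.76, in lane 2.

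Of the other shares, mt-Cytb took 37.2 ± 2.42% of the summed members in the transgenic group against 33.0 ± 2.42% in the wild type (SD, n = 4 females), higher in 3 of 4 lanes. mt-Nd1 took 17.6 ± 0.583% and 18.6 ± 0.460%, lower in 4 of 4 lanes. mt-Co1 took 12.0 ± 1.27% and 13.3 ± 1.30%, likewise lower in 4 of 4, as were mt-Co3 and mt-Atp6. mt-Nd5 took 10.9 ± 0.0662% in the wild-type and 11.7 ± 1.24% in the transgenic females. The females of the genotypes overlapped in every share, and shares of a whole are bound to each other, so that a higher mt-Cytb share lowers the rest.

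The nuclear genes that maintain, transcribe and translate mitochondrial DNA were taken from a list of 63 symbols, 52 of them in the table and 44 tested. Of these, 13 were higher and 31 lower in the transgenic females, while 52.2% of all tested genes were lower. None passed the adjusted threshold (0 of 44, beside 0% of all tested genes), with a median log2 difference of -0.06 against -0.014 for all tested genes. The transcription and packaging factor Tfam had 4.07 ± 2.15 RPM in the transgenic against 6.49 ± 1.47 RPM in the wild-type group, lower in 4 of 4 lanes with overlapping groups (log2 difference -0.64 ± 0.30, adjusted p 0.735). The others with the smallest p on this side were the initiation factor Mtif3 (58.0 ± 10.7 against 73.2 ± 10.9 RPM, -0.36 ± 0.18), the oligoribonuclease Rexo2 (109 ± 19.7 against 129.9 ± 5.90 RPM, -0.27 ± 0.16) and 1110008L16Rik (8.13 ± 3.58 against 12.3 ± 4.98 RPM, -0.53 ± 0.33), each lower in 3 of 4 lanes.

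On the other side, the termination factor family gene Mterfd3 was the only gene of the 44 with an unadjusted p under 0.05, beside 6.81% of all tested genes (1.78 ± 0.658 against 0.702 ± 0.532 RPM, 0.75 ± 0.28, adjusted p 0.724, higher in 3 of 4 lanes). Its wild-type mean was under the filter of 1 RPM, so it was tested only through its higher transgenic values. Its p is therefore not given as support for a difference. Lrpprc, which stabilises heavy-strand messengers, had 16.5 ± 4.43 against 12.0 ± 2.10 RPM, higher in 4 of 4 lanes (0.44 ± 0.23, adjusted p 0.755). The elongation factor Gfm1 had 111.5 ± 25.4 against 87.1 ± 2.34 RPM (0.30 ± 0.18, higher in 2 of 4 lanes) and the ribosome-associated Ptcd3 79.2 ± 23.2 against 58.4 ± 13.4 RPM (0.36 ± 0.24, higher in 4 of 4). None of these passed the adjusted threshold in limma.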

How the data were processed

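The deposited table holds log2 values made by the authors for 21 single oocytes and 1 control RNA. Per the submitters' processing notes, Trim Galore, FastQC and HISAT2 were used with the builds GRCm39 and mm39; the counting tool, the annotation, the treatment of multiple matches and strand were not given in the sources used here. The table's coordinates of the 13 mitochondrial entries are those of GENCODE M21 (GRCm38). Gm10222, however, starts at 24612404 in the table and at 24612407 in that release. The match therefore does not establish which annotation or build the table used. Although named RPKM, the deposited log2 values were not divided by gene length: they are log2 RPM, with 0.9 reads in place of 0. Whole reads were recovered from them: 100% of 256342 values under 2000 reads were whole within a tolerance of 0.02, as were 99.84% of all values above 0. The water-only library and 1 further transgenic oocyte (lane 1, oocyte A) are not analysed here.

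RPM was recomputed from these reads and the implied library totals. Female means of log2(RPM + 1), a scale that understates changes of low genes, went into limma 3.58.1 (lmFit and trended eBayes, two-sided) in R 4.3.3 for the 10987 genes averaging 1 RPM or more; p-values were Benjamini-Hochberg adjusted, the threshold being 0.05. The fit was tried on simulated data, with larger changes and smaller spreads than those of the members. It therefore does not show that changes of the members' size would be found. Nothing beyond the female states separate cages or litters, so p-values measure the spread between these females. Named genes were the 10 members, the other mitochondrial entries and their nuclear copies, up to 4 genes of the nuclear list with the smallest p per direction, and the 5 transcripts most correlated with the heavy-strand mean and with mt-Nd6 (Gm, Rik and -ps symbols left out); Amh and the cell markers are named besides. Members and lists were chosen with earlier results of these data known. Sequences and copies are from GENCODE M21 transcripts, matched in stretches of 50 and 100 bases with Biopython 1.88. A copy was aligned where it shared a stretch of 50. Copies on a single chromosome were left out of the list and the count of copies. Alternatives were a pseudocount of 0.1, no filter, a filter of 10 RPM, other scalings, voom, single oocytes, the lane as a replicate block, and each female left out. Per the labels a lane holds 1 female per genotype, so lanes pair the females; across genes, the departures of lane mates from their groups correlated at -0.04, 0.084, 0.34 and 0.32 in lanes 1 to 4 (other pairs, median -0.055).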

Additional observations from a re-analysis of the deposited data

How the results depend on the processing

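No alternative brought a member past the threshold; the lowest adjusted p of a member was 0.445. The 78 values of members under other pseudocounts, filters, scalings, voom, single oocytes or the lane as a replicate block all kept their sign; with the lane as a replicate block mt-Nd6 had -0.37 (limma, adjusted p 0.537) and no call changed. Of 80 values with a female left out, 16 changed sign, with ranges of -0.359 to 0.047 for mt-Co1, -0.479 to 0.028 for mt-Co2, -0.403 to 0.029 for mt-Co3, -0.44 to 0.12 for mt-Atp6, -0.058 to 0.375 for mt-Cytb, -0.273 to 0.11 for mt-Nd1, -0.291 to 0.191 for mt-Nd2 and -0.094 to 0.218 for mt-Nd5. mt-Nd4 (-0.509 to -0.035) and mt-Nd6 (-0.606 to -0.147) stayed below 0. The number of members lower ran from 2 to 10 with a female left out and was 6 by means of RPM without the logarithm (chosen after seeing the data, as was this count). The number of genes past the threshold ran from 0 to 1 with a female left out (1 without the transgenic female of lane 1). Single oocytes were fitted with the lane in the model and 1 correlation, 0.0495, for all oocytes of a female, and 12 genes were called. That fit takes sister oocytes as nearly independent, so its calls do not rest on the female as the replicate. What moved these counts was not tested. The summed members' log2 difference was -0.038 scaled to non-mitochondrial reads and 0.013 under median-of-ratios scaling. With a minimum of 10 RPM, mt-Co2 and mt-Co3 were not tested. Adding reads of nuclear copies to members was not run, since the copy in the table belongs to mt-Nd4l. mt-Nd4l rested on as few as 1 read in an oocyte, and mt-Nd3 on 5 reads in the control RNA.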
